A study of Mus musculus with 6 samples.

Results

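The cell cycle and DNA replication genes of adipocytes grown from mouse adipose-derived stem cells (ADSCs) are described here, with and without the compound NJT-2. They are the genes that the KEGG annotation column of the expression table places in the cell cycle pathway or in the DNA replication pathway, unless the same column also places them in insulin signaling or in cytokine and receptor interaction. Of the 4864 genes analysed, 62 were in either pathway, 3 of these (*Tgfb1*, *Tgfb3*, and *Gsk3b*) were left out by the second condition, and 59 remained as members. Among the members, 41 were under cell cycle alone, 15 under DNA replication alone, and 3 under both. By role, 21 were replication genes, 11 mitotic genes, 9 genes of the entry into S phase (G1/S genes), 6 inhibitors of the cycle, and 2 damage checkpoint genes, and 10 had other roles.

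A dividing cell first commits to replication, when cyclin D and cyclin E kinases phosphorylate the retinoblastoma protein and release the E2F transcription factors, which turn on the genes of S phase. It then loads the MCM helicase on origins, copies its DNA with a primase and several polymerases, and later divides when Cdk1 drives mitosis and the anaphase-promoting complex ends it. Inhibitors such as p21 and p27 block the cyclin kinases. Adipocyte precursors in culture are known to divide early in differentiation and to leave the cycle as they mature.

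ADSCs are the fibroblast-like adipocyte precursors of fat, and the labels give subcutaneous adipose tissue as their source and WT as the genotype of all 6 libraries. The study's methods name male C57BL/6J mice and white adipose tissue. Age and any pooling of animals are not given in the sources used here. In both groups the cells received the same hormonal differentiation medium and were harvested as mature adipocytes on day 8. The 3 vehicle libraries come from cultures without the compound, and the 3 NJT-2 libraries from cultures with NJT-2, which is saikosaponin A, a plant saponin studied as a ligand of the nuclear receptor PPARγ, at 200 nM, the concentration given for this cell model and not separately for the sequenced cultures. The study describes treatment during differentiation and, for another assay, treatment of cells that were already mature. Its text does not state which of these the sequenced cultures had, or for how long. The cells were taken from digested fat without a sort that the methods mention, so other cell types of fat can be among them. The labels do not say whether replicates are separate cultures or animals, so a p-value measures the spread between these libraries, which may be technical.

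The libraries held between 16093037 and 28929673 counts on the analysed genes, which is 27.7% to 32.5% of each library, and the members took 1.01% to 1.59% of these counts. With such depth the spread between libraries, not counting error, sets the precision. Of 3705 genes with a mean FPKM (counts scaled to the length of the gene and the size of the library) of at least 0.5, edgeR called 26, or 0.702%, where a call needed an adjusted p under 0.05 and a change of more than 1 in either direction on the log2 scale. Vehicle replicate 1 and NJT-2 replicate 2 stood apart from the rest of their groups. Over the tested members, NJT-2 replicates 1 and 3 differed by a median of 0.13 on the log2 scale, and NJT-2 replicate 2 differed from these by 0.70 and 0.78. Vehicle replicate 1 differed from the other vehicle libraries by 0.64 and 0.90, against 0.38 between those. Long genes had relatively higher counts in vehicle replicate 3 and in the NJT-2 libraries (Spearman correlation of gene length with the log2 ratio to the mean of all libraries between 0.18 and 0.35, over 3705 genes of shared libraries) and relatively lower counts in vehicle replicates 1 and 2 (-0.39 and -0.40). Of the adipocyte markers, 10 of 10 in the table had higher levels with NJT-2 and 6 were called by edgeR, and their summed level was 84.9 to 106 FPKM in vehicle, 497 in NJT-2 replicate 2, and 1491 and 1859 FPKM in the other NJT-2 libraries. Most of these adipocyte markers were low in the vehicle libraries in spite of the differentiation that their labels give, such as *Adipoq*, the adiponectin gene, at 0.38 to 0.50 FPKM. The exceptions were *Lpl* at 55.1 to 78.8 FPKM and *Pnpla2* at 14.11 to 18.95 FPKM in vehicle, which made up most of the vehicle sums. The 5 progenitor and fibroblast markers had lower mean levels with NJT-2, with 1 called (227 to 999 FPKM summed in vehicle, 444 to 488 in NJT-2). The 5 macrophage markers had higher ones, with 1 called (9.74 to 13.1 FPKM summed in vehicle, 32.6 to 61.0 in NJT-2), and 4 endothelial markers summed to 1.15 to 2.92 FPKM in any library. None of these markers was at 0 in all libraries, *Fcgr1* was at 0 in vehicle replicate 1, and the part that such cells have in the values below was not tested.

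Of the 59 members, 57 passed the filter, and *E2f2* (0.090 to 0.46 FPKM) and *Smc1b* (0 to 0.090 FPKM) did not. No member was called by edgeR. DESeq2 on the same genes called 6 members, which is 10.5% against 7.8% (289) of all tested genes, and these were *Mcm5*, *Cdc20*, *Cdk1*, *Gadd45g*, and *Rnaseh2c*, with lower levels under NJT-2, and *Rb1*, with higher levels. At an unadjusted p under 0.05 in edgeR, 14 members (24.6%) were lower with NJT-2, against 9.72% (360) of all tested genes, and 2 (3.51%) were higher, against 8.04% (298). The log2 fold change was below 0 in 35 members (61.4%), against 49.2% of all tested genes. In 16 members (28.1%) all NJT-2 libraries lay below all vehicle libraries in FPKM, against 11.5% of all tested genes, and in 3 (5.26%) they lay above, against 14.4%. Without vehicle replicate 1 and NJT-2 replicate 2, an alternative chosen after seeing the data, edgeR called 7 members (12.3%), against 13.4% (496) of 3690 genes, and these were *Cdc45*, *Cdc20*, *Cdc6*, *Cdk1*, *Rb1*, *Fen1*, and *Pola2*. In bulk RNA, fewer dividing cells and less of each RNA per cell cannot be told apart.

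**Figure D1:**
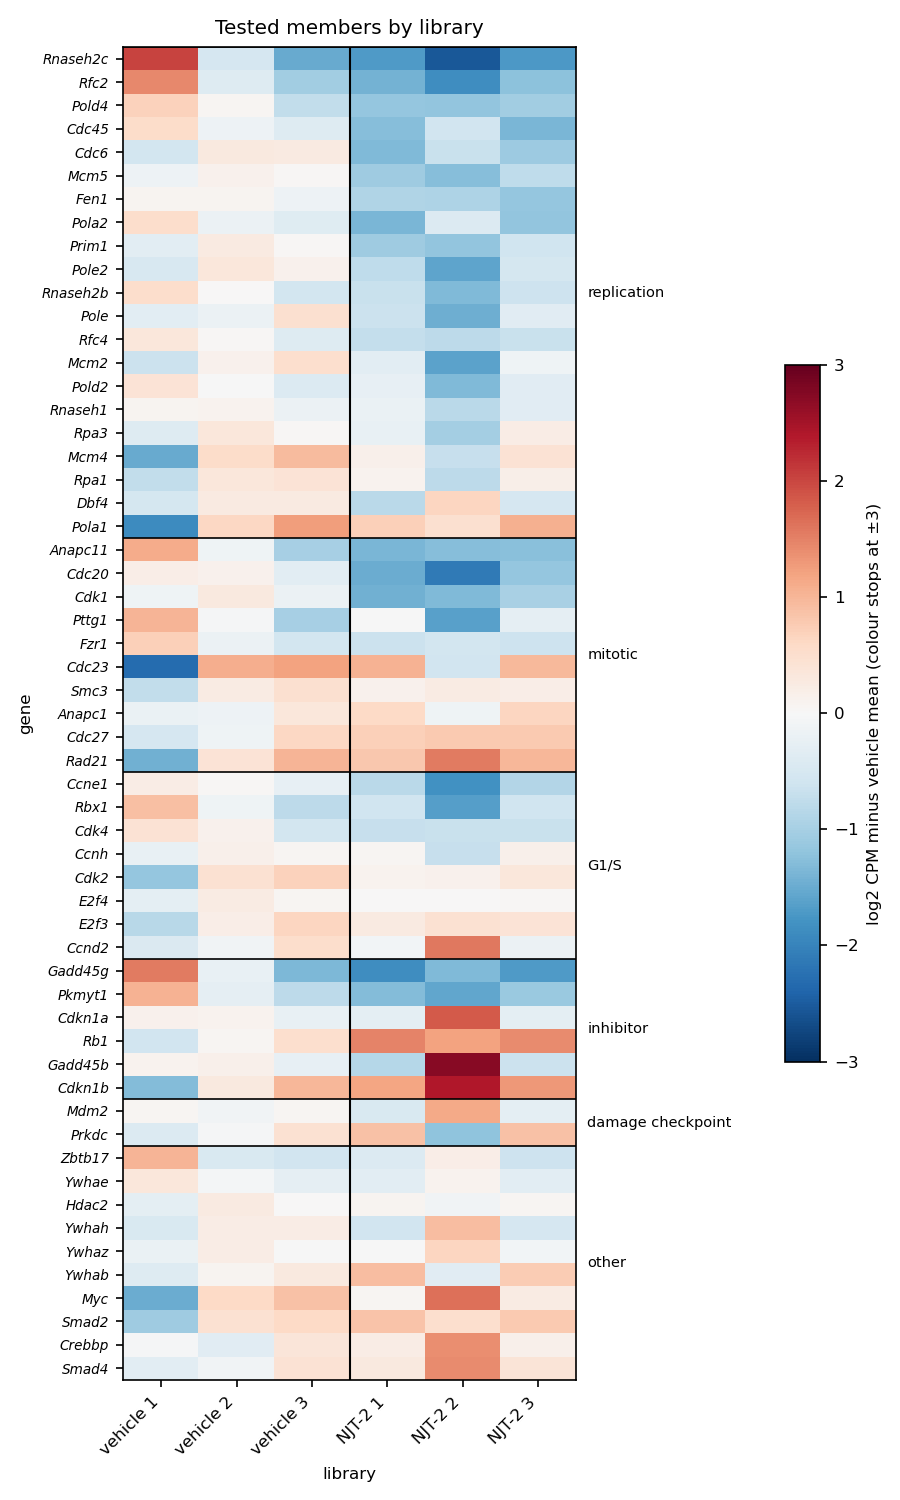
Heat map of the 57 tested members (rows, by role and then by log2 fold change) in the 6 libraries (columns), with colour for the depth-scaled log2 count (log2 CPM) minus the mean of the 3 vehicle libraries. The upper block of 21 replication genes is mostly below the vehicle mean in the NJT-2 columns, while NJT-2 replicate 2 is high for several inhibitors and other members.

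Most replication genes had lower mean levels with NJT-2. Of 21 tested, 20 (95.2%) had a log2 fold change below 0, with a median of -0.91 beside 0.02 over all tested genes, and *Pola1* was the exception at 0.29 ± 0.71 (SE). None was called by edgeR, and 8 (38.1%, against 9.72% of all tested genes) were lower at an unadjusted p under 0.05. This count was 4 with a replicate block or when NJT-2 replicate 3 was left out, and 2 when NJT-2 replicate 1 was. DESeq2 called 2 (9.52%), near the 7.8% of all tested genes. In NJT-2 replicates 1, 2, and 3 the median gene differed from its vehicle mean by -0.76, -1.03, and -0.59 on the log2 scale, and by -0.16, 0.10, and 0.03 in the vehicle libraries. Their summed level was 216, 204, and 166 FPKM in vehicle and 115, 82.8, and 127 FPKM with NJT-2. All 3 NJT-2 libraries thus lay below all vehicle libraries in both measures. The sum in vehicle replicate 1 leaned on *Rnaseh2c* (81.4 FPKM) and *Pold4* (50.0 FPKM), which were at 9.55 and 24.1 FPKM in NJT-2 replicate 3. Without this pair of genes the sum in vehicle replicate 1 would lie below that in NJT-2 replicate 3. The separation of the sums thus rests on this pair and does not hold for the rest of the 21 genes together. NJT-2 replicate 2 was the lowest of the 6 libraries in FPKM for 13 of the 21 genes, against 1046 of all 3705 tested genes. Among the replication genes shorter than the median tested gene, 12 of 12 were lower with a median of -0.94, and among the longer ones 8 of 9 were lower with a median of -0.78, while over all tested genes 1137 of 1852 shorter and 685 of 1853 longer genes were lower. With each library's trend with length taken out, the median was -0.86 and 19 of 21 were lower. Without vehicle replicate 1 and NJT-2 replicate 2, 21 of 21 were lower with a median of -0.67.

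Helicase loading and firing had 6 members with log2 fold changes from -1.09 to -0.12 (median -0.83), and 2 had an unadjusted p under 0.05. *Mcm5* (ENSMUSG00000005410), a subunit of the replicative helicase, had levels of 6.99, 13.5, and 12.8 FPKM in vehicle and 5.88, 4.64, and 7.34 FPKM with NJT-2. In FPKM vehicle replicate 1 was near the NJT-2 libraries, and the groups overlapped by NJT-2 replicate 3 alone. On the log2 CPM scale they did not overlap, with vehicle replicate 1 at -0.16 from the vehicle mean and NJT-2 at -1.065, -1.284, and -0.771. The means were 11.1 ± 3.56 and 5.95 ± 1.35 FPKM (SD, n = 3 each). On the log2 scale this is a change of -1.03 ± 0.30 (SE), for which edgeR gave an adjusted p of 0.178 and DESeq2 one of 0.0286, and over all alternatives the adjusted p of *Mcm5* went from 0.0242 to 0.453. *Cdc45*, which joins the helicase to make it active, was at 7.84, 7.54, and 6.59 FPKM in vehicle and at 3.47, 5.19, and 3.29 FPKM with NJT-2, with no overlap (log2 fold change -1.09 ± 0.40, edgeR adjusted p = 0.236). *Cdc6*, the helicase loader, was chosen after its values were seen. It was at 0.80, 2.27, and 2.29 FPKM in vehicle and 0.74, 1.08, and 0.89 FPKM with NJT-2, so vehicle replicate 1 lay among the NJT-2 libraries in FPKM (log2 fold change -1.05 ± 0.46, edgeR adjusted p = 0.287). On the log2 CPM scale vehicle replicate 1 lay above them, at -0.562 from the vehicle mean against -1.315, -0.659, and -1.079. For *Mcm2* and *Mcm4*, further helicase subunits also chosen after seeing values, vehicle replicate 1 was below NJT-2 replicates 1 and 3. *Mcm2* was at 1.74, 4.68, and 6.24 FPKM in vehicle and 3.45, 1.28, and 3.99 FPKM with NJT-2. *Mcm4* was at 1.96, 12.8, and 17.4 FPKM in vehicle and 9.81, 5.02, and 12.0 FPKM with NJT-2, and its log2 fold change turned from -0.29 to 0.13 without vehicle replicate 3.

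The promoters of *Mcm5* and *Cdc6* are shown because these are the loading factors with a match to the E2F motif, the element through which E2F factors control S phase genes. RefSeq windows on GRCm38.p6, from 250 bases before to 50 bases after the start, were found for 41 of the 59 members. An E2F motif was searched on both strands as TTTCCCGC, TTTCGCGC, TTTGCCGC, or TTTGGCGC, the cell cycle homology region (CHR) as TTTGAA, and the CCAAT box as CCAAT. The E2F letters were in 8 of the 41 windows (19.5%), in 4 of 16 replication windows (*Cdc6*, *Mcm5*, *Pola1*, and *Pole2*), and in 2.26% of all 32851 windows. The CHR letters were in 7 of 41 (17.1%) against 17.9% of all windows, and the CCAAT box in 22 of 41 (53.7%) against 37.4%. Of the 4 replication genes with an E2F match, *Mcm5* was among the genes with an unadjusted p under 0.05, and *Pola1* was the member above 0. In the stretches of 200 bases before the RefSeq start, read 5′ to 3′ on the strand of the gene, capitals mark these motifs, and the pair of E2F matches in *Mcm5* overlap. The first lies at chr8:75109309-75109508 (+ strand), with E2F matches that begin 153 and 149 bases before the start and CCAAT boxes at 77 and 22, and the second at chr11:98907951-98908150 (+ strand), with an E2F match at 138. The starts that come with the expression values differ from those of RefSeq. By these the *Cdc6* stretch and its E2F match lie wholly inside the gene (chr11:98907801-98923940). The *Mcm5* stretch lies before its gene, which starts at 75109569.
Mcm5: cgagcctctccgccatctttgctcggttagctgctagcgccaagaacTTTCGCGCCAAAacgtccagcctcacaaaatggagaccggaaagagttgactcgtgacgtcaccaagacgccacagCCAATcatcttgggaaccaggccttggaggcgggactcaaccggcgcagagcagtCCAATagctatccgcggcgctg
Cdc6: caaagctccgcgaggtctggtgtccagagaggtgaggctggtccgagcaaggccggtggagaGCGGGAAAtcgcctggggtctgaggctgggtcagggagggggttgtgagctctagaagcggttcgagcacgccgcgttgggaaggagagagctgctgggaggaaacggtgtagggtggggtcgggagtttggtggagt

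The 7 polymerase and primase members had a median log2 fold change of -0.93, with 6 below 0 and 3 lower at an unadjusted p under 0.05. *Pold4*, the small subunit of polymerase delta, was at 50.0, 50.2, and 29.5 FPKM in vehicle and 21.7, 19.7, and 24.1 FPKM with NJT-2, so the groups did not overlap (log2 fold change -1.24 ± 0.41, edgeR adjusted p = 0.209). It is a short gene, and with the trend with length taken out its log2 fold change was -0.53. *Pold4* overlaps the protein-coding gene *AC109138.7* on the same strand, as *Pole2* does *Gm49384*, so strand cannot tell reads of these pairs apart. *Prim1*, the catalytic primase subunit, was at 1.9, 4.44, and 3.87 FPKM in vehicle and 1.75, 1.49, and 2.5 FPKM with NJT-2 and overlapped in FPKM through vehicle replicate 1. On the log2 CPM scale it did not overlap, with that library at -0.31 from the vehicle mean and NJT-2 at -1.07, -1.18, and -0.59. *Pola2*, a subunit of polymerase alpha, was at 3.92, 3.74, and 3.35 FPKM in vehicle and 1.62, 2.95, and 1.89 FPKM with NJT-2, without overlap. Its log2 fold change was -0.98 ± 0.41, with an edgeR adjusted p of 0.277 over 6 libraries and 0.0242 without the pair that stood apart (0.0242 to 0.516 over the alternatives). *Prim1* and *Pola2* were chosen after seeing values. *Pola1*, the catalytic subunit of polymerase alpha, chosen likewise, was at 0.12, 1.12, and 1.78 FPKM in vehicle and 1.21, 0.93, and 1.55 FPKM with NJT-2. Its higher mean with NJT-2 rested on vehicle replicate 1, without which its log2 fold change was -0.25.

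The 4 members of the clamp loader and the single-strand binding complex had log2 fold changes from -1.89 to -0.20 (median -0.52), and 1 of these, *Rfc2*, had an unadjusted p under 0.05. *Rfc2*, a clamp loader subunit, was at 17.3, 7.56, and 4.95 FPKM in vehicle and 3.71, 2.5, and 4.35 FPKM with NJT-2. The groups did not overlap, but vehicle replicate 1 was 2.76 times the mean of the other vehicle libraries (log2 fold change -1.89 ± 0.65, edgeR adjusted p = 0.219, and -0.85 without vehicle replicate 1). The 4 genes of Okazaki fragment maturation had log2 fold changes from -2.72 to -0.43 (median -0.95), 2 of them with an unadjusted p under 0.05. *Fen1*, the flap endonuclease that trims Okazaki fragments, was at 6.82, 10.7, and 9.34 FPKM in vehicle and 5.41, 4.89, and 4.65 FPKM with NJT-2. These groups did not overlap, and the NJT-2 libraries were close to each other (4.98 ± 0.39 FPKM, SD, n = 3). The change was -0.999 ± 0.30 on the log2 scale (edgeR adjusted p = 0.185). *Rnaseh2c*, a subunit of the RNase H2 that removes RNA from DNA, was the tested member with the lowest log2 fold change over 6 libraries, with 81.4, 21.9, and 11.1 FPKM in vehicle and 9.57, 4.88, and 9.55 FPKM with NJT-2. Vehicle replicate 1 was 4.93 times the mean of the other vehicle libraries, and its log2 fold change moved from -2.72 ± 0.89 (edgeR adjusted p = 0.204, DESeq2 adjusted p = 0.0158, 0.0158 to 0.451 over the alternatives) to -1.07 without it. Of the replication genes 6 overlap a protein-coding gene on the opposite strand. These are *Fen1* with *Tmem258*, *Rnaseh2c* with *Kat5*, *Rfc2* with *Lat2*, *Cdc45* with *Ufd1*, *Rfc4* with *Eif4a2*, and *Rnaseh2b* with *Dleu7*. The library kit marks strand, but its use in counting is not given in the sources used here, so reads of such pairs may not have been told apart. All 6 are among the 8 replication genes (38.1%, against 11.5% of all tested genes) with NJT-2 wholly below vehicle in FPKM. The rest of these 8 are *Pold4*, with its overlap on the same strand, and *Pola2*. What such overlaps add to the values was not tested.

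**Figure D2:**
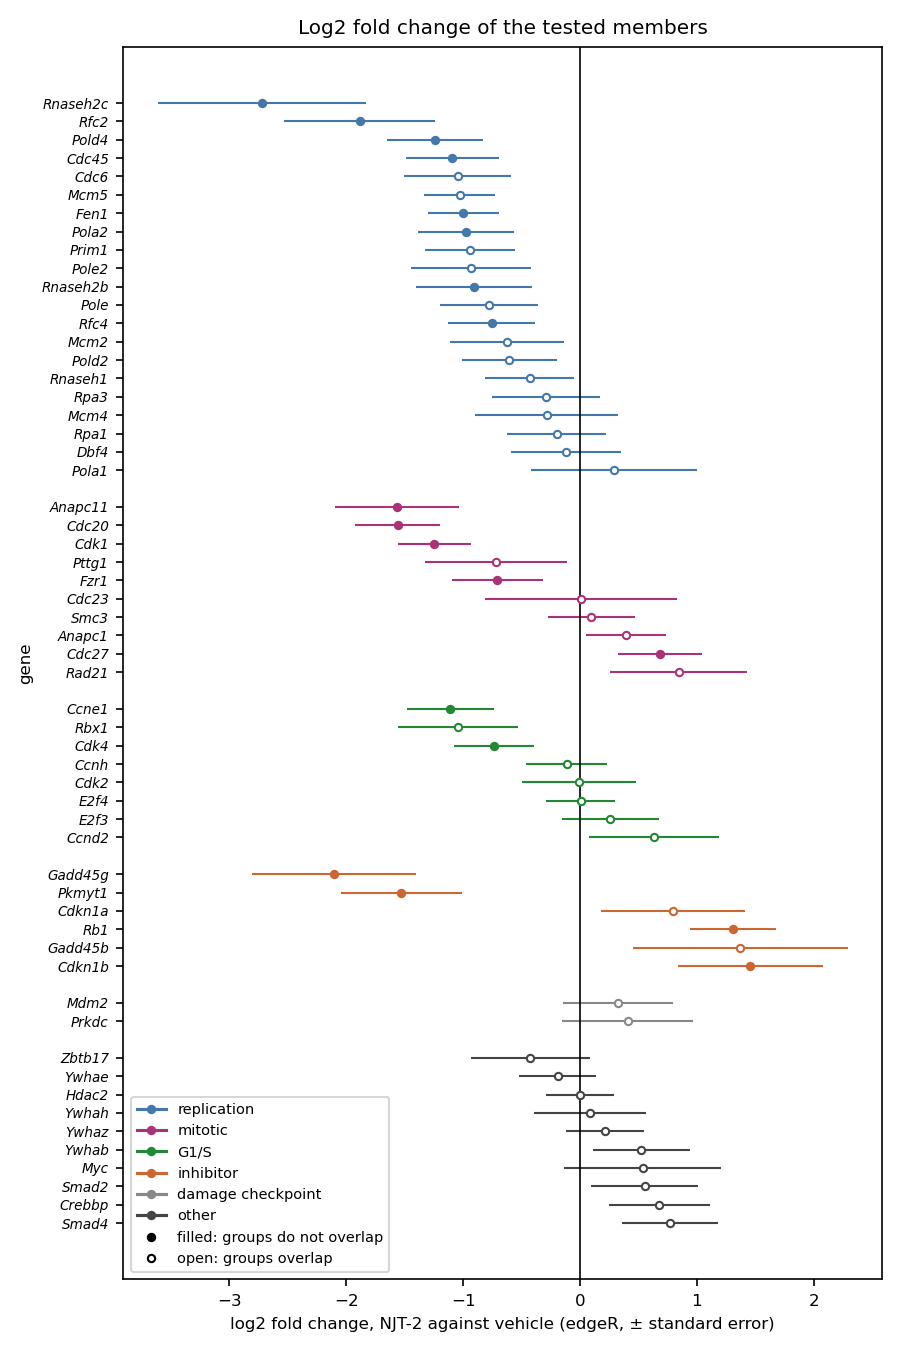
Log2 fold change (NJT-2 against vehicle, edgeR, points) with its standard error (bars) for the 57 tested members, by role. Filled points are the 19 genes whose groups do not overlap in FPKM. Replication genes lie left of 0 with 1 exception, while mitotic, G1/S, and inhibitor genes lie on both sides.

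The mitotic members did not move one way. Of 10 tested, 5 were lower and the median was -0.35, and none was called by edgeR. These 10 were 6 genes of the anaphase-promoting complex, 3 of cohesin and separase, and *Cdk1*, so they cover few parts of mitosis. Of the further mitotic genes given below, which are not members, 15 of 15 were lower with a median of -0.96. At an unadjusted p under 0.05, 3 were lower (*Cdc20*, *Cdk1*, and *Anapc11*), or 30.0% against 9.72% of all tested genes. DESeq2 called 2, or 20.0% against 7.8%. By library the median gene differed from its vehicle mean by 0.05, -0.56, and -0.05 with NJT-2 (replicates 1, 2, and 3) and by -0.16, 0.05, and 0.09 in vehicle. The median log2 fold change was -0.16 without NJT-2 replicate 2 and -0.19 without vehicle replicate 1 and NJT-2 replicate 2, and 8 of 10 were lower with the trend with length taken out.

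*Cdc20* (ENSMUSG00000006398, chr4:118432901-118437352 on GRCm38), the activator of the anaphase-promoting complex in mitosis, was at 20.5, 30.4, and 23.1 FPKM in vehicle and at 9.96, 5.91, and 12.8 FPKM with NJT-2. Each NJT-2 library was below each vehicle library, and NJT-2 replicate 2 was lowest. The means were 24.6 ± 5.16 and 9.55 ± 3.45 FPKM (SD, n = 3 each), or -1.56 ± 0.36 as log2 fold change (edgeR adjusted p = 0.121). The adjusted p was 0.00390 in DESeq2, and it went from 0.00390 to 0.414 over the alternatives. Leaving out 1 library at a time gave log2 fold changes from -1.79 to -1.34. *Cdk1* (ENSMUSG00000019942, chr10:69335146-69352938), the mitotic kinase, was at 7.72, 16.4, and 12.1 FPKM in vehicle and 4.93, 4.86, and 6.92 FPKM with NJT-2, again without overlap. Its log2 fold change was -1.25 ± 0.31 (edgeR adjusted p = 0.134, DESeq2 adjusted p = 0.00830, 0.00830 to 0.451 over the alternatives), and it stayed between -1.40 and -1.08 with 1 library left out. *Cdc20* overlaps *Elovl1* on the opposite strand.

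The promoters of *Cdc20* and *Cdk1* are given because these members held the lowest edgeR p-values of the set and to show the CHR letters, an element known from genes of G2 and mitosis. These letters were in 2 of 9 mitotic windows (22.2%), those of this pair, and in 5 of 16 replication windows (31.2%), beside 17.9% of all windows. *Cdk1* also holds an E2F match. The stretches are again the 200 bases before the RefSeq start, on the strand of the gene, with the same motifs in capitals and no overlapping matches. Both reach at their 3′ end into the gene as placed by the coordinates above. That of *Cdc20* lies at chr4:118437344-118437543 (- strand), with CCAAT boxes that begin 53 and 8 bases before the start and TTTGAA between them. For *Cdk1* it is chr10:69352913-69353112 (- strand), with the E2F letters at 131, CCAAT boxes on the other strand at 80 and 48, and the CHR letters at 71 and 15.
Cdc20: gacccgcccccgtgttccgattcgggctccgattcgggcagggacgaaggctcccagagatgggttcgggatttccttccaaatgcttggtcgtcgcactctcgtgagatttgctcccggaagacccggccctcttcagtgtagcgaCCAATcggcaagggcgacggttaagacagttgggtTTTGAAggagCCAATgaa
Cdk1: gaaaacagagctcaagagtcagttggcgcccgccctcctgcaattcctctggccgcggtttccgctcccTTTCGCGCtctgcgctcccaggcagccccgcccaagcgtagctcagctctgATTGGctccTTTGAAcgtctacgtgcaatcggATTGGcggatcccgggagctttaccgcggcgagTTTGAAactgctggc

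The anaphase-promoting complex had 6 members, 3 lower and 3 higher. *Anapc11*, its catalytic subunit, was at 18.9, 12.4, and 7.03 FPKM in vehicle and 5.25, 5.17, and 5.83 FPKM with NJT-2 without overlap (log2 fold change -1.56 ± 0.53, edgeR adjusted p = 0.218), and its log2 fold change was -0.85 without vehicle replicate 1. *Fzr1*, the activator of the complex in late mitosis and G1, was at 10.5, 8.88, and 6.98 FPKM in vehicle and 6.41, 6.29, and 6.57 FPKM with NJT-2, with no overlap in FPKM either (-0.71 ± 0.39, edgeR adjusted p = 0.341). On the log2 CPM scale NJT-2 replicate 2 (-0.5474 from the vehicle mean) lay just above vehicle replicate 3 (-0.5478). *Cdc27*, a scaffold subunit, went the other way in its values, with 3.80, 7.62, and 13.3 FPKM in vehicle and 13.8, 13.3, and 14.8 FPKM with NJT-2. Its lowest NJT-2 value was just above its highest vehicle value, and vehicle replicate 1 was far below the rest (0.68 ± 0.36, edgeR adjusted p = 0.328).

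*Rad21*, the cohesin subunit cut by separase and the mitotic member with the highest mean level, was at 2.98, 16.9, and 26.5 FPKM in vehicle and 22.4, 34.6, and 26.0 FPKM with NJT-2. Here vehicle replicate 1 was 0.137 times the mean of the other vehicle libraries, and the groups overlapped (0.84 ± 0.58, edgeR adjusted p = 0.420). *Pttg1*, the separase inhibitor securin, named after its values were seen, was at 19.8, 14.9, and 7.85 FPKM in vehicle and 15.1, 4.53, and 12.8 FPKM with NJT-2. Its log2 fold change was -0.72 ± 0.60 over 6 libraries and 0.28 without the pair of libraries that stood apart.

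Other genes of S phase and mitosis, from lists of genes that are not members, were counted for comparison. The lists hold 26 S phase and 50 mitotic genes, of which 9 and 15 are counted here. Of 9 further S phase genes, 8 were lower, 3 at an unadjusted p under 0.05 and none called by edgeR, with a median of -0.78. *Tk1*, the thymidine kinase of S phase, was at 5.59, 7.50, and 5.29 FPKM in vehicle and 2.87, 0.84, and 3.64 FPKM with NJT-2. *Gmnn*, geminin, which blocks repeated loading of the helicase, was at 6.92 to 10.9 FPKM in vehicle and 4.46 to 5.42 FPKM with NJT-2, and *Chaf1b*, a chromatin assembly factor, at 2.49 to 3.69 against 1.39 to 1.99 FPKM. Of 15 further mitotic genes, 15 were lower, 8 at an unadjusted p under 0.05 and none called by edgeR, with a median of -0.96. Over all tested genes 49.2% were lower, and 9.72% were lower at an unadjusted p under 0.05 in edgeR. *Ube2c*, the ubiquitin-conjugating enzyme of the anaphase-promoting complex, was at 17.0, 25.4, and 17.4 FPKM in vehicle and 6.39, 7.99, and 8.73 FPKM with NJT-2. *Incenp*, of the chromosomal passenger complex, was at 11.2 to 11.8 FPKM in vehicle and 5.05 to 5.86 FPKM with NJT-2, and *Birc5* of the same complex at 6.91 to 17.1 against 2.15 to 4.31 FPKM. These 3 genes, picked for the smallest p, had no overlap between groups, as had the 3 S phase genes picked likewise. Over the whole lists, all NJT-2 libraries lay below all vehicle libraries in 3 of the 9 S phase and 6 of the 15 mitotic genes, against 11.5% of all tested genes.

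**Figure D3:**
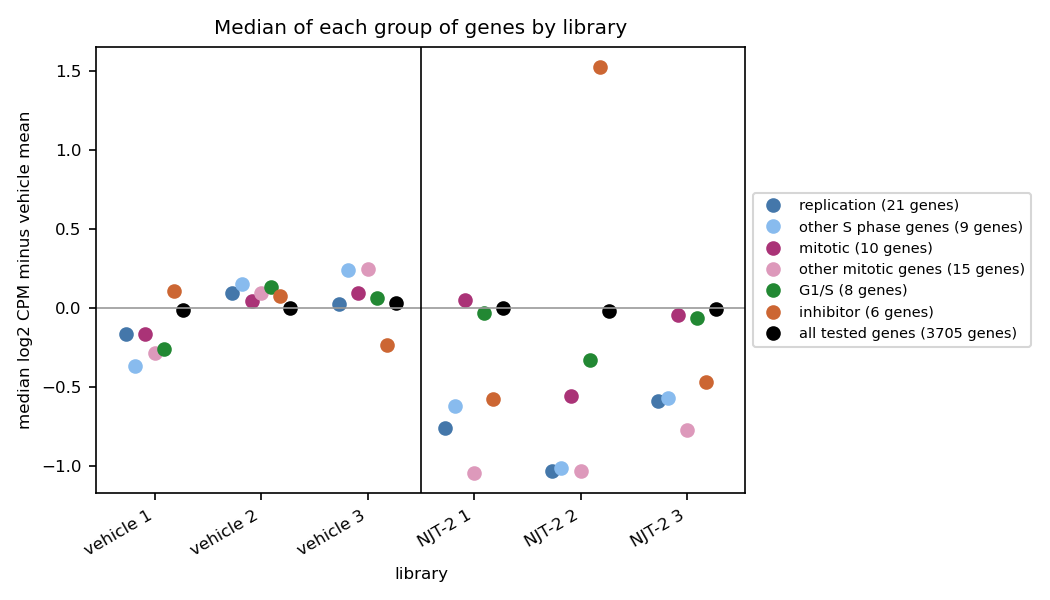
Median log2 CPM minus the vehicle mean (vertical axis) of each group of genes in each library (horizontal axis), with all 3705 tested genes in black near 0. The replication, other S phase, and other mitotic genes lie between -1.04 and -0.57 in the 3 NJT-2 libraries, and the inhibitors lie at 1.52 in NJT-2 replicate 2 and at -0.58 and -0.47 in the other NJT-2 libraries.

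The G1/S genes had a median log2 fold change of -0.06 over 8 tested members, 5 of them lower, with none called. At an unadjusted p under 0.05, 1 was lower (12.5%, against 9.72% of all tested genes). *Ccne1*, cyclin E1, which drives the entry into S phase, was at 10.9, 15.1, and 12.6 FPKM in vehicle and 8.44, 3.85, and 8.13 FPKM with NJT-2. The groups did not overlap, and NJT-2 replicate 2 was lowest (log2 fold change -1.11 ± 0.37, edgeR adjusted p = 0.217). *Cdk4*, the kinase partner of cyclin D and the G1/S member with the highest mean level, was at 64.0, 80.8, and 52.1 FPKM in vehicle and 46.3, 43.0, and 47.8 FPKM with NJT-2, also without overlap. It differed by -0.73 ± 0.34 on the log2 scale (edgeR adjusted p = 0.298), and it overlaps *Tspan31* on the opposite strand.

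*Rbx1*, the RING subunit of SCF ubiquitin ligases, was at 17.4, 13.4, and 8.75 FPKM in vehicle and 9.71, 4.25, and 9.82 FPKM with NJT-2, with overlap. *Ccnd2*, cyclin D2, was at 17.4, 34.3, and 54.5 FPKM in vehicle and 34.9, 102, and 33.6 FPKM with NJT-2. NJT-2 replicate 2 was 2.97 times the mean of the other NJT-2 libraries, and without it the log2 fold change turned from 0.63 ± 0.56 to -0.18. *E2f3*, an activator of S phase genes, was at 1.30, 4.14, and 5.79 FPKM in vehicle and 4.39, 4.56, and 4.94 FPKM with NJT-2, and *Ccnh*, the cyclin of the CDK-activating kinase, at 4.27, 8.62, and 8.35 against 8.19, 4.46, and 8.88 FPKM. Both overlapped widely, and their log2 fold changes of 0.26 ± 0.41 and -0.12 ± 0.35 changed sign when 1 library was left out.

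The inhibitors split by gene and by library. Of 6 tested members, 4 were higher and 2 lower, with a median of 1.05 over 6 libraries and -0.53 without NJT-2 replicate 2. None was called by edgeR, *Rb1* and *Cdkn1b* were higher and *Gadd45g* and *Pkmyt1* lower at an unadjusted p under 0.05, and DESeq2 called *Rb1* and *Gadd45g*. *Rb1* (ENSMUSG00000022105), the retinoblastoma protein that holds E2F factors inactive, was at 1.06, 2.55, and 3.61 FPKM in vehicle and 6.96, 5.23, and 6.72 FPKM with NJT-2. All NJT-2 libraries lay above all vehicle libraries, and the means were 2.41 ± 1.28 and 6.30 ± 0.94 FPKM (SD, n = 3 each). On the log2 scale *Rb1* was higher by 1.31 ± 0.37 (edgeR adjusted p = 0.164, DESeq2 adjusted p = 0.0210, 0.0210 to 0.451 over the alternatives), and it stayed between 1.02 and 1.57 with 1 library left out. *Rb1* is longer than the median tested gene, and with the trend with length taken out the value was 1.12. It overlaps *Lpar6* and *Rcbtb2* on the opposite strand.

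*Cdkn1b*, which encodes the CDK inhibitor p27, was at 0.94, 4.44, and 7.47 FPKM in vehicle and 8.27, 17.7, and 9.15 FPKM with NJT-2. The groups did not overlap, but vehicle replicate 1 was 0.158 times the mean of the other vehicle libraries and NJT-2 replicate 2 was 2.03 times the mean of the other NJT-2 libraries. The log2 fold change was 1.46 ± 0.62 (edgeR adjusted p = 0.278), and 0.55 without that pair. *Cdkn1a*, which encodes the CDK inhibitor p21, was at 48.9, 75.1, and 61.9 FPKM in vehicle and 57.8, 234, and 58.7 FPKM with NJT-2. NJT-2 replicate 2 was 4.01 times the mean of the other NJT-2 libraries, which lay within the vehicle range. Its log2 fold change of 0.79 ± 0.62 (edgeR adjusted p = 0.465) turned to -0.30 without NJT-2 replicate 2.

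*Gadd45g*, a growth arrest and damage gene and the inhibitor with the highest mean FPKM, was at 258, 116, and 55.0 FPKM in vehicle and 37.3, 49.9, and 42.8 FPKM with NJT-2. The groups did not overlap in FPKM, but on the log2 CPM scale NJT-2 replicate 2 (-1.331 from the vehicle mean) lay just above vehicle replicate 3 (-1.339). Vehicle replicate 1 was 3.02 times the mean of the other vehicle libraries in FPKM (log2 fold change -2.11 ± 0.70, edgeR adjusted p = 0.215, DESeq2 adjusted p = 0.0342, 0.0342 to 0.451 over the alternatives). The value was -0.98 without vehicle replicate 1 and -1.18 with the trend with length taken out. *Pkmyt1*, a kinase that inhibits Cdk1, was named after its values were seen, and it was at 8.54, 5.31, and 3.83 FPKM in vehicle and 2.60, 2.02, and 3.03 FPKM with NJT-2 (-1.53 ± 0.52, edgeR adjusted p = 0.218, and -0.86 without vehicle replicate 1). Its groups did not overlap, and it overlaps *Paqr4* on the opposite strand.

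*Gadd45b* of the same family as *Gadd45g*, also named after its values were seen, was at 14.2, 23.2, and 17.9 FPKM in vehicle and 11.5, 127, and 13.7 FPKM with NJT-2. A single library, NJT-2 replicate 2 at 10.1 times the mean of the other NJT-2 libraries, set its log2 fold change of 1.37 ± 0.92 (edgeR adjusted p = 0.407), which was -0.76 without it. *Mdm2*, the p53 ubiquitin ligase among the damage checkpoint genes, showed the same library high, with 25.3, 35.5, and 40.3 FPKM in vehicle and 28.1, 77.8, and 31.6 FPKM with NJT-2 (0.32 ± 0.47, and -0.38 without NJT-2 replicate 2). *Mdm2*, *Prkdc*, and *Myc*, below, were likewise picked after seeing values. The second damage checkpoint member, the DNA-dependent protein kinase gene *Prkdc*, went the other way in this library, at 0.56 FPKM against 2.59 and 2.63 FPKM in the other NJT-2 libraries and 0.68 to 1.96 FPKM in vehicle.

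**Figure D4:**
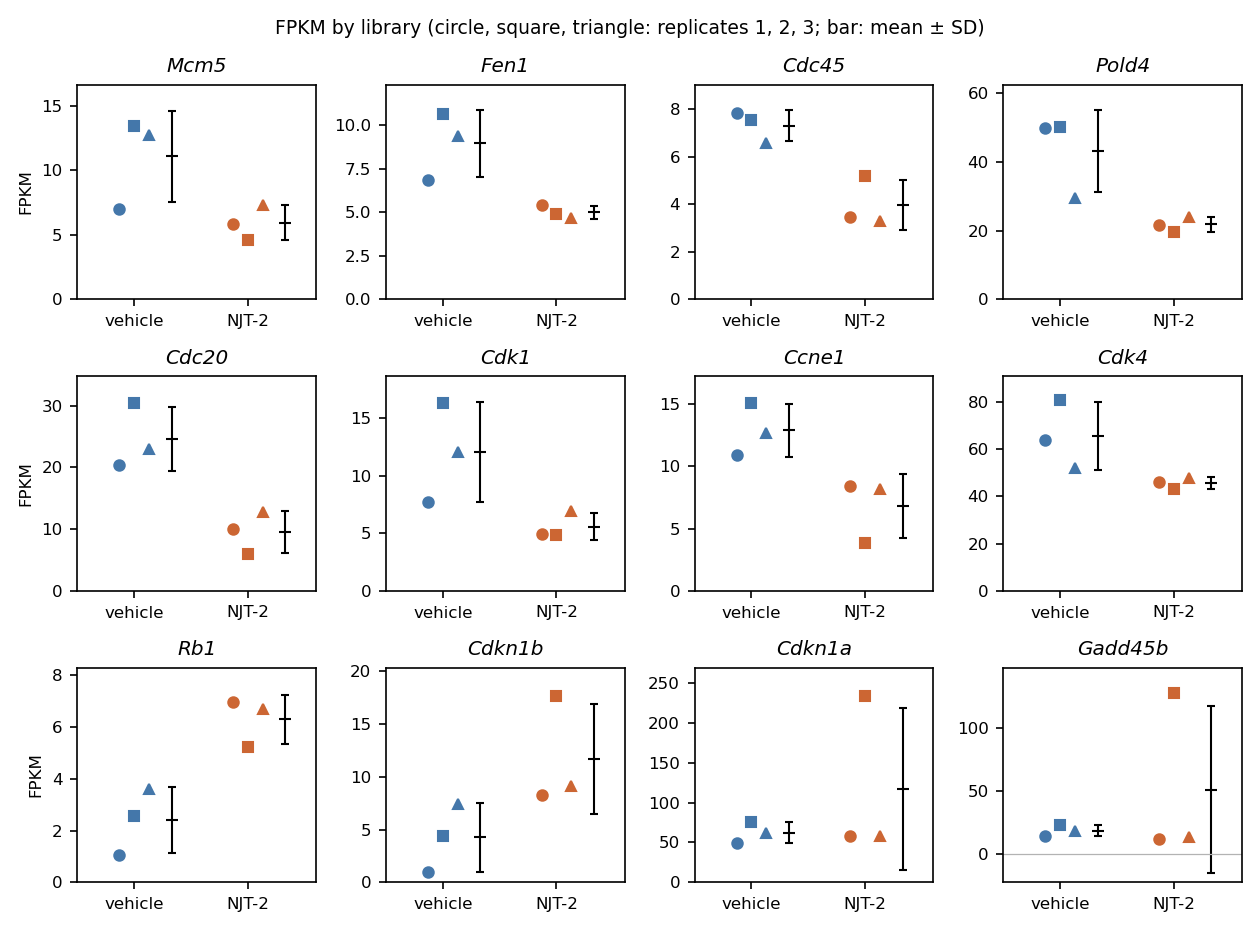
FPKM (vertical axes, each from 0 or below) of 12 members in the vehicle (blue) and NJT-2 (orange) libraries, with replicates 1, 2, and 3 as circle, square, and triangle and the mean ± SD as bar. *Fen1*, *Cdc45*, *Pold4*, *Cdc20*, *Cdk1*, *Ccne1*, and *Cdk4* have no overlap and lower NJT-2 values, *Rb1* and *Cdkn1b* have no overlap and higher ones, *Mcm5* overlaps, and *Cdkn1a* and *Gadd45b* are high in NJT-2 replicate 2 alone.

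The 10 members with other roles, 4 genes of 14-3-3 adaptor proteins and 6 of transcription and signalling, had a median of 0.37, with 3 lower and 7 higher, and none of them had an unadjusted p under 0.05 or groups without overlap. In FPKM NJT-2 replicate 2 was the highest of the 6 libraries in 6 of the 10, against 905 of all 3705 tested genes. Vehicle replicate 1 was the lowest in 8, against 1895 of all tested genes. *Myc*, a growth factor response gene of the cell cycle, was at 5.74, 38.2, and 47.2 FPKM in vehicle and 26.3, 73.2, and 30.4 FPKM with NJT-2. Its log2 fold change was 0.53 ± 0.67 and became -0.16 without NJT-2 replicate 2.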

How the data were processed

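RNA-seq was analysed in 3 vehicle and 3 NJT-2 libraries, grouped by their labels. The submitters' processing notes name cutadapt 1.9, HISAT2 2.2.1, and StringTie 2.1.6, and the genome is GRCm38. The deposited table gives each gene a raw count and an FPKM in each library. No scaling by the authors was found in the counts, and the FPKM of the authors is the count over gene length and library total. How reads were counted, with which annotation and whether by strand, is not given in the sources used here. Of 4865 lines analysed here, 1 incomplete line was left out, and all 4864 identifiers are among the 55450 genes of GENCODE M21.

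Counts were tested in R 4.3.3 with edgeR 4.0.16 (quasi-likelihood test, TMM factors, no covariate) over the 3705 genes that reached a mean of 0.5 FPKM, with Benjamini-Hochberg adjustment over these genes. Genes were called below an adjusted p of 0.05 when the change exceeded 1 on the log2 scale in either direction. Standard errors are the log2 change over the root of the F statistic. Library values on the log2 scale are log2 CPM with a prior count of 2. Alternatives were DESeq2 1.42.0, upper-quartile factors, other filters, a replicate block, an offset for gene length, and leaving out libraries.

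The members and lists were chosen with earlier results of these data known. The named genes are, for the replication, mitotic, and G1/S roles, the 6 with the smallest p, every CDK inhibitor protein and pocket protein, the member with the highest mean FPKM of each main role, and damage checkpoint genes with an unadjusted p under 0.05, of which there were 0. Genes named after their values were seen are marked so in the text. From each further list, up to 3 genes with the smallest p are given. A gene of the S phase list is not reported here and was left out of its counts and median. The lists are other S phase, mitotic, and antiproliferative genes and markers of adipocytes, progenitors and fibroblasts, macrophages, and endothelium. Promoter windows are from RefSeq (GRCm38.p6).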

Additional observations from a re-analysis of the deposited data

How the results depend on the processing

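The direction of the replication genes held under each alternative tried, with 19 to 21 members lower and medians from -0.94 to -0.67, the weakest without both vehicle replicate 1 and NJT-2 replicate 2. With that pair left out, 496 genes and 7 members were called, the inhibitor median was -0.48, the G1/S median was -0.28, 37 members lay wholly lower, and 7 wholly higher. DESeq2 called 289 genes and 6 members. Upper-quartile factors and no filter each left 1 member higher at an unadjusted p under 0.05, and no filter moved the mitotic median to -0.73. Leaving out 1 library at a time, genes called ranged from 0 to 80 (80 without NJT-2 replicate 2, 0 without vehicle replicate 2), members called stayed at 0, members lower at an unadjusted p under 0.05 ranged from 6 (without NJT-2 replicate 1) to 16, and members higher from 1 to 3. Members wholly lower ranged from 16 to 29 (without vehicle replicate 1) and wholly higher from 3 to 7 (without vehicle replicate 3 or NJT-2 replicate 2). With fewer libraries per group, values separate more readily. Counts of members wholly lower or higher with 1 library or that pair left out therefore cannot be set beside those of all 6 libraries. Their shares over all tested genes were not computed. The G1/S median ranged from -0.35 (without vehicle replicate 1) to 0.043, and the inhibitor median from -0.53 (without NJT-2 replicate 2) to 1.21.

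With 1 library left out, log2 fold changes turned sign without NJT-2 replicate 2 for *Ccnd2* (range -0.18 to 0.95), *Ccnh* (-0.27 to 0.10), *Cdkn1a* (-0.30 to 1.14), *Gadd45b* (-0.76 to 1.85), *Mdm2* (-0.38 to 0.60), and *Myc* (-0.16 to 0.92), without vehicle replicate 1 for *E2f3* (-0.10 to 0.59) and *Pola1* (-0.25 to 0.88), and without vehicle replicate 3 for *Mcm4* (-0.78 to 0.13). For *Pttg1* they ranged from -1.10 to -0.12. With both vehicle replicate 1 and NJT-2 replicate 2 left out it was -0.38 for *Ccnd2*, -0.10 for *E2f3*, -0.24 for *Cdkn1a*, -0.72 for *Gadd45b*, -0.35 for *Mdm2*, -0.60 for *Myc*, -0.07 for *Pola1*, and 0.28 for *Pttg1*. With the trend with length taken out, *Prkdc* turned from 0.41 to -0.13. Of 34 named genes, 23 kept their direction in each alternative. Most of the 34 were named for the smallest p of their role or after their values were seen. The count therefore does not carry over to all members or all tested genes, for which it was not computed. Apart from these left-out libraries the cause of a change was not tested.

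Same-numbered libraries did not deviate together (correlations 0.18, 0.03, and -0.21), so the numbers were not taken as pairs. With the replicate block edgeR called 57 genes and no member. The limits are the 3 libraries per group, the libraries that stood apart (common biological coefficient of variation 0.504), and a table that holds part of the genes.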

Other observations

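Of 23 further antiproliferative genes listed, 5 were in the table. Among these 5, 1 was lower at an unadjusted p under 0.05 (against 9.72% of all tested genes) and none was called by edgeR. *Pmp22*, a growth arrest gene of the myelin protein family, was at 111, 149, and 115 FPKM in vehicle and 69.6, 63.6, and 83.7 FPKM with NJT-2, without overlap (log2 fold change -0.99 ± 0.32, edgeR adjusted p = 0.201). *Ndrg1*, a stress-responsive differentiation gene, was at 7.43, 12.7, and 14.4 FPKM in vehicle and 3.27, 183, and 3.18 FPKM with NJT-2, so a single NJT-2 library was high and the other two lay below the vehicle range. *Btg2*, an antiproliferative p53 target, was at 8.08, 21.8, and 21.7 FPKM in vehicle and 14.3, 53.4, and 15.1 FPKM with NJT-2, with the same library high. The other two were not far from the rest in that library, with *Klf4*, a transcription factor, at 2.68 to 34.8 FPKM in vehicle and 23.9, 36.9, and 26.2 FPKM with NJT-2, and *Ccng1*, cyclin G1, at 44.9 to 195 FPKM in vehicle and 149.5, 130, and 177 FPKM with NJT-2. These last 2 genes were named after their values were seen.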
